A study of Mus musculus with 9 samples.

Results

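The genes described here are 37 mouse genes that type I interferon switches on or that recognise, edit or answer to double-stranded RNA. They were taken as a fixed list of symbols, all 37 were found on the array, and 36 of them were among the 24199 genes that lay far enough above background to be tested, out of 36413 gene or region names on the array. The remaining one, Ifit3, was well above background on only 2 of the 8 arrays used for that filter.

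RNA was measured on 9 one-colour Agilent arrays in LSK cells, the lineage-negative, Sca1+ cKit+ fraction of bone marrow that is enriched in blood stem cells and early progenitors. The labels give 3 groups of 3 replicates, all from female mice with the Gt(ROSA)26Sor CreERT2 allele: controls with that allele alone, Drosha fl/fl mice and Dicer fl/fl mice. CreERT2 is a recombinase that 4OH-tamoxifen activates and that the Rosa26 locus drives in most cell types. The sorted cells of every group, controls included, were cultured for 72 h with 250 nM 4OH-tamoxifen, 10 ng/mL IL-3, 10 ng/mL IL-6, 50 ng/mL stem cell factor and 10% fetal calf serum at 50000 cells per well, so all groups carried an active Cre and none was kept without the drug. The labels give no age for the mice and do not say that replicates came from separate animals, so p-values measure the spread among these samples alone, and 3 arrays per group limit the precision.

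Double-stranded RNA is a mark of viral infection. RIG-I (Ddx58) and MDA5 (Ifih1) detect it in the cytoplasm and trigger interferon, which signals through its receptor to a factor complex that holds Stat2 and Irf9 and binds the interferon-stimulated response element (ISRE) of its target genes. PKR (Eif2ak2) stops translation on contact with double-stranded RNA, the Oas enzymes make a messenger that activates RNase L, and Adar edits the cell's own duplexes so that they are not sensed. Drosha and Dicer are RNase III enzymes that cut double-stranded hairpins on the way to microRNAs, and interferon is known to push blood stem cells out of quiescence. Setting each deletion beside the controls therefore asks whether the RNA of sensors and interferon targets differs when a hairpin-cutting enzyme is lost.

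The promoters of some of the genes carry the letters that the factor complex is known to bind. The core GAAANNGAAA, searched on both strands from 250 bases before to 50 after the start of each gene in the RefSeq promoter table (GRCm38.p6), was present in 15 of the 27 members matched there by symbol (55.6%), against 3.99% of 27025 genes. Stretches before the start are shown for 8 members from the main roles, 5′ to 3′ on the strand of the gene, with the ISRE core in capitals; some cores overlap.
Ifit1: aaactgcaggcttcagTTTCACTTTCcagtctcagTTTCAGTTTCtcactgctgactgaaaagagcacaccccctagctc
Rsad2: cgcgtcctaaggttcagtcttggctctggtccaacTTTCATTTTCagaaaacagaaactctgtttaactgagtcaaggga
Isg15: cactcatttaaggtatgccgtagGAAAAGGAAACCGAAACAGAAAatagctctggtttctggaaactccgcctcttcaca
Oas1a: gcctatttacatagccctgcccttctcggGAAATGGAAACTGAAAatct
Oas3: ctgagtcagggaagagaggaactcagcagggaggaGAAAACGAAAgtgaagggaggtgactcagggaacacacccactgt
Stat2: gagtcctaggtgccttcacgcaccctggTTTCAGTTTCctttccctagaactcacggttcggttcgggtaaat
Gbp2: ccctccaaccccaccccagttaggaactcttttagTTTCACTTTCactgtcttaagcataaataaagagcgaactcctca
Cxcl10: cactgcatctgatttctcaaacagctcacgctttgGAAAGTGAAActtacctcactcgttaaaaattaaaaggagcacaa

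These stretches lie at chr19:34640769-34640848 on the plus strand for Ifit1, chr12:26456528-26456607 on the minus strand for Rsad2, chr4:156200840-156200919 on the minus strand for Isg15 and chr5:120907526-120907574 on the minus strand for Oas1a. Those of Oas3 and Cxcl10 lie at chr5:120777690-120777769 and chr5:92349058-92349137 on the minus strand, and those of Stat2 and Gbp2 at chr10:128270248-128270320 and chr3:142620569-142620648 on the plus strand. The core nearest the start ended 4 bases before it in Oas1a, 49 in Gbp2, 56 in Isg15, 65 in Oas3 and 75 in Ifit1, and farther away in Rsad2 (110), Cxcl10 (203) and Stat2 (212). Ifit1 had 2 such cores and Isg15 had 3, of which consecutive ones overlap. A match is a description of letters and does not show that a factor was bound.

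Levels are the authors' deposited log2 values, 1 probe per gene, so 1 unit is a 2-fold difference; levels of different genes are not comparable because their probes differ. Drosha RNA checked the labels: it stood at 11.92 ± 0.10 in the controls, 9.01 ± 0.27 in the Drosha-deleted and 12.03 ± 0.11 in the Dicer-deleted cells (SD, n = 3) and fell by 2.91 against controls (adjusted p = 0.000162, limma with Benjamini-Hochberg adjustment over all genes tested). Dicer1 stood at 10.29 ± 0.32, 10.44 ± 0.41 and 9.05 ± 0.11, and its difference in the Dicer-deleted cells, −1.24, did not pass the threshold of 0.05 (adjusted p = 0.129, limma).

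The 3 control arrays did not stand alike. The scanner file of control replicate 2 had 18.9% of its spots marked non-uniform, against at most 0.0472% elsewhere. The authors' column for that sample correlated at 0.818 with its own file and at 0.987 with the file of control replicate 3, while every other column reached at least 0.993 with its own. The columns of control replicates 2 and 3 correlated at 0.991 with each other and at 0.980 and 0.985 with control replicate 1, which correlated at 0.993 with Dicer-deleted replicate 3. Control replicate 3 was alone on a second slide. Comparisons with controls are therefore also given without control replicate 1 and against single controls.

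**Figure D1:**
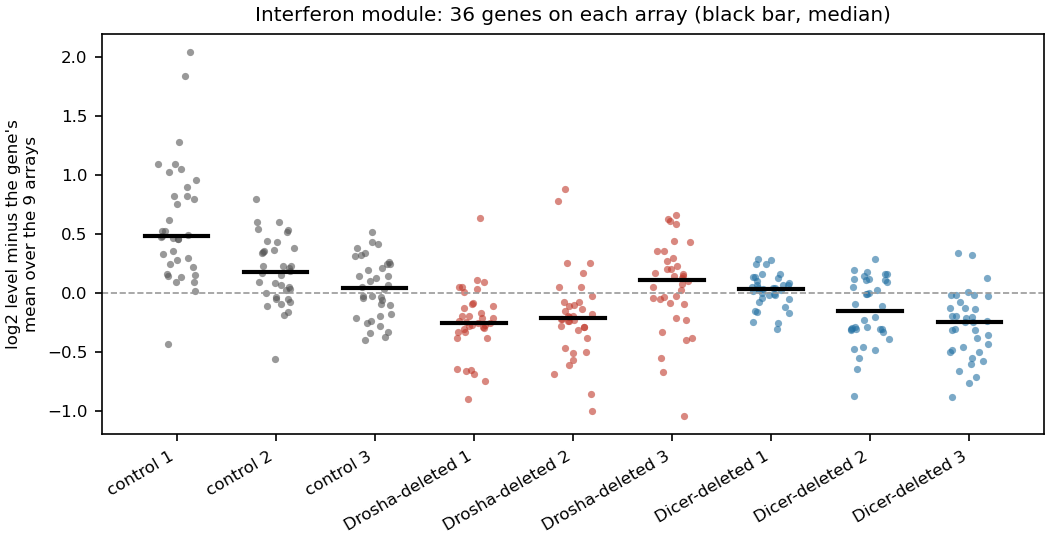
Each point is 1 of the 36 tested genes on 1 array, plotted as its log2 level minus its mean over the 9 arrays (vertical axis), and the black bars are medians. The median is highest in control replicate 1 (0.48), stands at 0.18 and 0.04 in control replicates 2 and 3, and Drosha-deleted replicate 3 (0.11) and Dicer-deleted replicate 1 (0.03) lie near control replicate 3.

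Taken over the 9 arrays, the members were highest in control replicate 1. That array had the highest level of all 9 for 25 of the 36 members (69.4%), against 5.80% of all genes tested, and lay above the gene's own mean for 35 of 36. The lowest level was in Dicer-deleted replicate 3 for 11 members and in Dicer-deleted replicate 2 for 7. The median deviation ran from 0.48 in control replicate 1 to −0.26 in Drosha-deleted replicate 1. Within the controls, replicate 1 was the highest for 28 of 36 members (77.8%) and for 42.4% of all genes, and it exceeded the mean of the other two controls by a median of 0.38 over members and 0 over all genes.

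Wide gaps between control arrays were seen in several members, of which 3 are given here. Rtp4, an interferon-induced zinc finger protein that restrains viruses, stood at 11.81, 10.77 and 9.69 in control replicates 1, 2 and 3, at 9.23, 8.97 and 10.00 in the Drosha-deleted replicates, and at 10.22, 9.77 and 9.31 in the Dicer-deleted replicates. Oas2, one of the synthetases that feed RNase L, stood at 10.26, 8.82 and 7.89 in the controls, 8.01, 7.36 and 7.84 in the Drosha-deleted and 8.06, 7.67 and 8.08 in the Dicer-deleted cells. Zbp1, which senses left-handed RNA duplexes and can start necroptosis, stood at 9.77, 8.25 and 8.79 in the controls, 8.92, 9.07 and 8.60 in the Drosha-deleted and 8.86, 7.94 and 9.13 in the Dicer-deleted cells. For all 3 genes control replicate 1 was the highest array and at least one other control lay among the deleted samples.

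Against the controls as a group, the Drosha-deleted cells had lower mean levels for 33 of the 36 members, and none passed the threshold. The median difference over members was −0.37 on the log2 scale (from −1.36 to 0.26), against 0.005 over all genes tested. No member was called, where 30 of 24199 genes (0.124%) were; the smallest adjusted p among members was 0.118 (limma). At an unadjusted p under 0.05, 14 members (38.9%) had lower and 0 had higher levels, against 25.6% of all genes in either direction. For 12 members (33.3%) all 3 Drosha-deleted samples lay below all 3 controls, against 9.98% of all genes, and for 0 members they lay above, against 12.3% of all genes. Among the 12, Ifitm3 and Ifi35 were separated from the lowest control only in digits not shown.

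The Dicer-deleted cells, compared with the same 3 control samples, had lower means for 34 of 36 members, and again none passed the threshold. The median difference was −0.41 (from −1.05 to 0.11), against 0.006 over all genes. No member was called, where 2 genes (0.00826%) were, and the smallest adjusted p was 0.14 (limma). At an unadjusted p under 0.05, 10 members (27.8%) had lower and 0 had higher levels, against 21% of all genes in either direction. All 3 Dicer-deleted samples lay below all 3 controls for 13 members (36.1%), against 9.55% of genes, and above them for 0, against 11.5% of genes.

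In the authors' values the medians were below 0 against each single control, with different sizes. The Drosha-deleted means lay below control replicate 1 for 35 members with a median difference of −0.61, below control replicate 2 for 30 with −0.30, and below control replicate 3 for 26 with −0.16. The Dicer-deleted means lay below the same 3 controls for 35, 30 and 23 members, with medians of −0.68, −0.31 and −0.14. Between 47.3% and 50.8% of all genes lay below in these 6 comparisons. Leaving out control replicate 1 brought the medians to −0.24 and −0.28. In the scanner values the medians were −0.71 and −0.67 against control replicate 1 and −0.25 and −0.30 against control replicate 3, but 0.75 and 0.65 against the aberrant file of control replicate 2, where 7 and 10 of 27 members lay below and the median over all genes was 0.92.

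**Figure D2:**
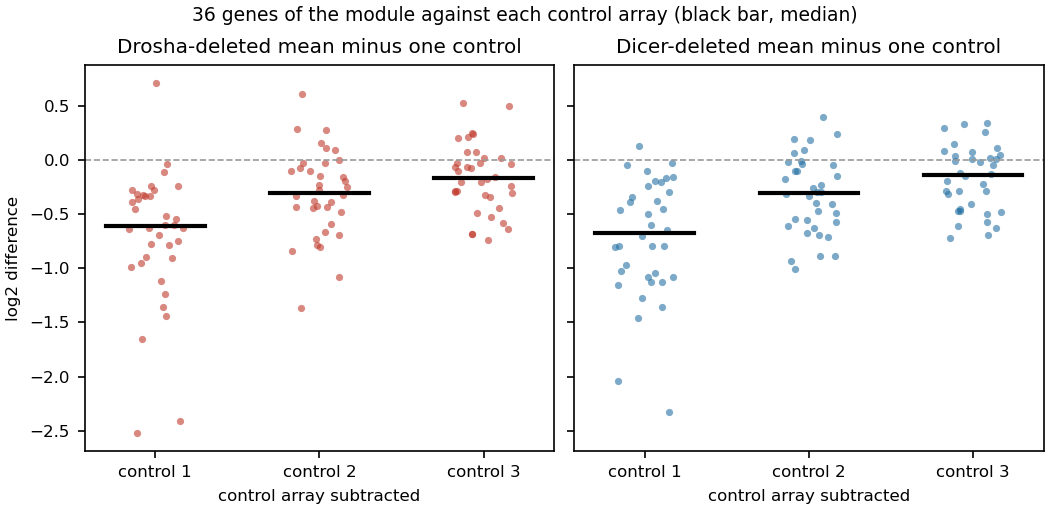
Each point is 1 of the 36 tested genes, plotted as the mean of the 3 Drosha-deleted (left) or Dicer-deleted (right) samples minus 1 control array, in log2 units; black bars are medians. The medians are farthest from 0 against control replicate 1 (−0.61 and −0.68) and nearest against control replicate 3 (−0.16 and −0.14).

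How many genes were called depended on control replicate 1. Without it, 7587 genes (31.4%) were called in Drosha-deleted against control cells and 6869 (28.4%) in Dicer-deleted against control cells. Of the members, 3 (8.33%) and 4 (11.1%) were called, all lower, where 14% and 12.5% of all genes were called lower. The 3 in Drosha-deleted cells were Ifit2 (−0.70, adjusted p = 0.0111), Herc6 (−0.69, adjusted p = 0.00838) and Eif2ak2 (−0.43, adjusted p = 0.0347), and the 4 in the Dicer-deleted cells were Ifit2 (−0.58, adjusted p = 0.0249), Mx1 (−0.70, adjusted p = 0.022), Herc6 (−0.46, adjusted p = 0.0428) and Samd9l (−0.59, adjusted p = 0.0131), all by limma. The share of members called lower was then not above that of all genes in either comparison, and it rests on 3 and 4 members. The controls left were replicates 2 and 3, whose columns correlated at 0.991. The column of replicate 2 correlated at 0.987 with the scanner file of replicate 3 and at 0.818 with its own. Whether they are independent measurements is not known, so the spread among controls may be understated and these p-values too small. The same limit holds for the weighted fit that follows. With the arrays weighted by limma, control replicate 1 had a weight of 0.15, 47.9% and 40.6% of all genes were called, and 13 (36.1%) and 9 (25%) members were called lower, where 23.1% and 18.8% of all genes were called lower. The members' share was thus above that of all genes in this fit and not above it without control replicate 1. Leaving out controls 2 and 3 instead, an alternative chosen after the data were seen, left 1 control. The difference of Oas2 in Drosha-deleted cells was then −2.52. Calls are not given for this fit, because the lone control was assumed to vary like the other groups.

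The sensors and editors of double-stranded RNA were 11 members. Against controls, 11 of 11 had lower means in Drosha-deleted cells (median −0.36, from −1.25 to −0.07) and 10 of 11 in the Dicer-deleted cells (median −0.30, from −1.05 to 0.11). Samples did not overlap for 2 of them in Drosha-deleted cells and for 4 in the Dicer-deleted cells, all lower, where 9.98% and 9.55% of all genes tested lay wholly below the controls.

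Of the helicases that bind viral RNA, Ifih1, the sensor of long duplexes, stood at 10.62, 10.32 and 10.20 in the controls, 9.82, 9.86 and 10.30 in the Drosha-deleted and 10.08, 9.79 and 9.88 in the Dicer-deleted cells. The Dicer-deleted samples all lay below the controls, and Drosha-deleted replicate 3 reached them. Ddx58, the sensor of RNA ends with a triphosphate, stood at 11.67, 11.15 and 10.95 in the controls, 11.01, 11.03 and 11.41 in the Drosha-deleted and 11.29, 11.35 and 11.00 in the Dicer-deleted cells, with overlap in both comparisons. A second probe of Ddx58 gave larger differences, −0.62 and −0.52, than the probe used, −0.11 and −0.04.

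Dhx58, the third helicase, lacks the signalling domains of the other two and tunes them. It stood at 9.45, 9.27 and 9.13 in the controls, 8.59, 8.61 and 9.28 in the Drosha-deleted and 8.87, 8.62 and 8.49 in the Dicer-deleted cells. The Dicer-deleted samples lay below all controls, a difference of −0.62 (SE 0.20, 1.54-fold) with an adjusted p of 0.186 (limma). Drosha-deleted replicate 3 stood inside the range of the controls.

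Eif2ak2, the kinase that halts translation, stood at 10.23, 10.37 and 10.48 in the controls, 9.89, 10.03 and 10.05 in the Drosha-deleted and 10.21, 10.13 and 9.89 in the Dicer-deleted cells. Both deleted groups lay below all controls, the Dicer-deleted one by a narrow margin (10.21 against 10.23), and control replicate 1 was the lowest control. Adar, the editing enzyme, stood at 11.44, 11.48 and 11.43 in the controls, 11.11, 11.28 and 11.60 in the Drosha-deleted and 11.29, 11.20 and 10.95 in the Dicer-deleted cells. Its controls lay close together, with an SD of 0.03, and Drosha-deleted replicate 3 was the highest array. A second Adar probe had the opposite sign in the Dicer-deleted cells, 0.24 against −0.30.

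The oligoadenylate synthetase family was led by control replicate 1. Oasl1, which lacks synthetase activity and restrains Irf7 translation, stood at 9.61, 8.55 and 8.24 in the controls, 8.06, 7.87 and 7.94 in the Drosha-deleted and 8.44, 8.45 and 7.88 in the Dicer-deleted cells. The Drosha-deleted samples lay below every control. Oasl2 stood at 11.14, 10.00 and 9.65 in the controls, 9.40, 9.67 and 10.63 in the Drosha-deleted and 10.21, 10.21 and 9.55 in the Dicer-deleted cells, and Oas1a at 13.56, 12.66 and 12.56, then 12.83, 12.79 and 12.70, then 12.57, 12.26 and 12.71. In both, the deleted samples lay around control replicates 2 and 3. Oas1a has close copies in the genome that a probe may also bind, and its second probe had differences of 0.16 and 0.01 where the one used had −0.16 and −0.41.

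Oas3 was the member of this family whose deleted groups did not overlap with each other. It stood at 7.33, 6.97 and 6.87 in the controls, 7.02, 6.77 and 6.30 in the Drosha-deleted and 7.25, 7.15 and 7.10 in the Dicer-deleted cells. The Drosha-deleted samples all lay below the Dicer-deleted ones, with a difference of −0.47 (SE 0.20, 1.38-fold) that did not pass the threshold (adjusted p = 0.895, limma).

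The 6 transcription factors and feedback regulators had lower means in both deleted groups, with medians of −0.32 (from −0.55 to −0.01) in the Drosha-deleted and −0.42 (from −0.60 to −0.30) in the Dicer-deleted cells against controls. Samples lay wholly below the controls for 2 of the 6 in each comparison, against 9.98% and 9.55% of all genes. Stat2 and Irf9 belong to the complex that binds the ISRE. Stat2 stood at 11.26, 11.35 and 11.08 in the controls, 11.05, 10.73 and 11.28 in the Drosha-deleted and 10.77, 10.68 and 10.94 in the Dicer-deleted cells, so that the Dicer-deleted samples were below all controls. Irf9 had means of 11.48 ± 0.26, 11.32 ± 0.20 and 11.18 ± 0.19 (SD, n = 3), with overlap.

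Irf7, the factor that amplifies interferon production, varied most within the Drosha-deleted group. It stood at 8.81, 7.96 and 7.62 in the controls, 8.63, 8.77 and 6.95 in the Drosha-deleted and 7.99, 7.53 and 7.68 in the Dicer-deleted cells. Drosha-deleted replicate 3 had the lowest Irf7 of the 9 arrays, and the other Drosha-deleted samples lay near control replicate 1. The groups overlapped in every comparison.

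The feedback regulators include the ubiquitin-like protein Isg15 and enzymes that attach or remove it. Isg15 stood at 11.88, 10.92 and 10.80 in the controls, 10.86, 10.63 and 10.81 in the Drosha-deleted and 10.90, 10.55 and 10.37 in the Dicer-deleted cells, with control replicate 1 almost 1 unit above every other array. Usp18, which removes Isg15 from proteins and blocks the interferon receptor, stood at 9.79, 9.40 and 9.31 in the controls, 8.88, 8.95 and 9.22 in the Drosha-deleted and 9.09, 9.29 and 8.62 in the Dicer-deleted cells, below all controls in both deleted groups. Herc6, the ligase that attaches Isg15 in mouse cells, stood at 8.05, 8.47 and 8.46 in the controls, 7.78, 7.84 and 7.70 in the Drosha-deleted and 7.99, 8.23 and 7.79 in the Dicer-deleted cells.

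Herc6 differed from Isg15 in its controls: control replicate 1 was the lowest of the 3. The Drosha-deleted samples were below all of them, a difference of −0.55 (SE 0.16, 1.47-fold, adjusted p = 0.119, limma). The array files name this probe Herc5, and it was matched to Herc6 through its accession. The probe lies at chr6:57568608-57568667 (mm9). A second Herc6 probe gave −0.30 in the Drosha-deleted and −0.56 in the Dicer-deleted cells, where the one used gave −0.55 and −0.32. Which deletion had the larger difference thus depended on the probe.

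The antiviral effectors were the largest role, with 15 members of which 14 were tested. Against controls, 14 of 14 had lower means in Drosha-deleted cells (median −0.47, from −1.36 to −0.17) and 13 of 14 in the Dicer-deleted cells (median −0.51, from −1.01 to 0.07). Samples lay wholly below the controls for 8 and 7 of them, against the same shares of all genes (9.98% and 9.55%). Most of the members with the smallest p-values in either comparison belonged here.

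The Ifit proteins bind viral RNA caps or ends and block its translation. Ifit1 stood at 7.35, 7.20 and 6.84 in the controls, 6.38, 6.09 and 6.72 in the Drosha-deleted and 6.61, 6.31 and 5.88 in the Dicer-deleted cells. Its differences from controls were −0.73 (SE 0.23, 1.66-fold, adjusted p = 0.128, limma) in the Drosha-deleted and −0.86 (SE 0.23, 1.81-fold, adjusted p = 0.164, limma) in the Dicer-deleted cells. All 6 deleted samples lay below the lowest control.

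Ifit2 showed the same order with a different control on top. It stood at 8.48, 8.82 and 8.90 in the controls, 8.08, 8.10 and 8.30 in the Drosha-deleted and 8.41, 8.41 and 8.01 in the Dicer-deleted cells, so control replicate 1 was the lowest control. The differences were −0.57 (SE 0.16, 1.49-fold, adjusted p = 0.118, limma) and −0.46 (SE 0.16, 1.37-fold, adjusted p = 0.194, limma). Ifit2 was the member with the smallest p in Drosha-deleted cells. With the scanner signal corrected by normexp and quantile-normalised, in which the aberrant file of control replicate 2 enters, both differences turned positive (0.22 and 0.27). The median over all genes was then 0.20 in both comparisons.

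Ifit3, of the same family, was not tested. It was listed at 6.55, 6.19 and 6.05 in the controls, 5.38, 5.64 and 6.14 in the Drosha-deleted and 5.89, 6.0 and 5.53 in the Dicer-deleted cells. It was well above background on 1 array of each of the control and Drosha-deleted groups, leaving control replicate 2 aside, and on none of the Dicer-deleted group, so its order carries little weight. The probes of Ifit1 and Ifit2 lie at chr19:34723796-34723855 and chr19:34650244-34650303 (mm9).

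Mx1 and Mx2 are dynamin-like GTPases that trap viral nucleoproteins. Mx1 stood at 6.52, 6.40 and 6.45 in the controls, 5.91, 5.88 and 5.98 in the Drosha-deleted and 5.78, 5.39 and 6.02 in the Dicer-deleted cells. The controls had an SD of 0.06, and all 6 deleted samples lay below them. The differences were −0.53 (SE 0.16, 1.45-fold, adjusted p = 0.122, limma) and −0.73 (SE 0.16, 1.65-fold, adjusted p = 0.142, limma). Mx1 was dim: of the Dicer-deleted arrays only 1 was well above background, against 3 Drosha-deleted and 2 control arrays.

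Mx2 stood at 7.14, 6.88 and 6.13 in the controls, 5.96, 6.05 and 6.44 in the Drosha-deleted and 6.33, 6.33 and 5.84 in the Dicer-deleted cells, with control replicate 3 inside the range of both deleted groups. It was well above background on 5 of 8 arrays. The Mx1 probe lies at chr16:97668644-97668703 (mm9).

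Rsad2 and Cmpk2 are neighbours on chromosome 12, and their products make an antiviral nucleotide in successive steps. Rsad2 stood at 8.13, 8.37 and 8.21 in the controls, 7.45, 7.22 and 7.91 in the Drosha-deleted and 8.12, 7.88 and 7.23 in the Dicer-deleted cells. Cmpk2 stood at 8.90, 8.97 and 8.88 in the controls, 8.45, 8.38 and 8.79 in the Drosha-deleted and 8.65, 8.13 and 8.42 in the Dicer-deleted cells. In both genes the controls lay close together, all deleted samples lay below them, and the Drosha-deleted replicate nearest to them was replicate 3.

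The difference of Rsad2 in Drosha-deleted cells was −0.71 (SE 0.25, 1.64-fold, adjusted p = 0.136, limma), and that of Cmpk2 in the Dicer-deleted cells was −0.52 (SE 0.16, 1.43-fold, adjusted p = 0.182, limma). A second Cmpk2 probe had smaller differences, −0.08 in the Drosha-deleted and −0.02 in the Dicer-deleted cells, than the one used (−0.38 and −0.52). With normexp and quantile normalisation of the scanner signal the Cmpk2 difference in the Dicer-deleted cells was 0.11, where the median over all genes was 0.20. The probes lie at chr12:27127859-27127918 for Rsad2 and chr12:27164119-27164178 for Cmpk2 (mm9).

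Samd9l, an interferon-induced restraint on growth whose human form is mutated in inherited marrow failure, had levels that did not overlap between any groups. It stood at 11.89, 11.78 and 11.59 in the controls, 11.31, 11.20 and 11.54 in the Drosha-deleted and at 11.09 in each Dicer-deleted replicate. The order was control, then Drosha-deleted, then Dicer-deleted with no overlap, although control replicate 3 (11.59) and Drosha-deleted replicate 3 (11.54) nearly met. The differences from controls were −0.40 (SE 0.13, 1.32-fold, adjusted p = 0.13, limma) and −0.66 (SE 0.13, 1.58-fold, adjusted p = 0.14, limma), the latter the smallest p of the module in the Dicer-deleted cells. The probe lies at chr6:3322520-3322579 (mm9). A second Samd9l probe gave smaller differences from controls, −0.21 in the Drosha-deleted and −0.40 in the Dicer-deleted cells.

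**Figure D3:**
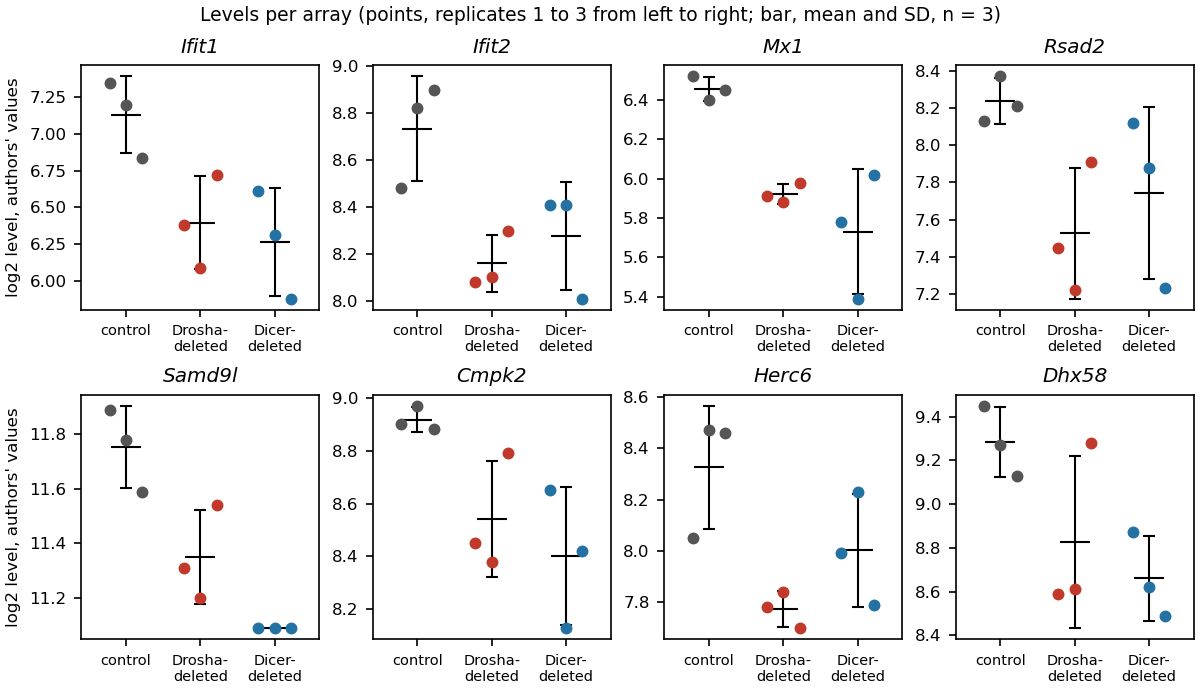
Points are the authors' log2 levels (vertical axis, a separate range in each panel) of 8 members on each array, in replicate order within a group, with the mean and SD of n = 3. The controls of Mx1, Rsad2 and Cmpk2 lie close together above all deleted samples, while Drosha-deleted replicate 3 reaches the controls in Dhx58 (9.28).

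Of the other effectors, Ifi44 had a low and variable level in the deleted cells. It stood at 7.88, 7.31 and 7.11 in the controls, 5.89, 6.29 and 7.40 in the Drosha-deleted and 6.83, 6.40 and 6.03 in the Dicer-deleted cells, where the Dicer-deleted samples were below every control. Xaf1, which promotes cell death, had means of 8.92 ± 0.59, 8.70 ± 0.40 and 8.46 ± 0.35 (SD, n = 3) with overlap. Parp14, a mono-ADP-ribosyltransferase, had means of 11.58 ± 0.19, 11.40 ± 0.20 and 11.41 ± 0.24, and Tor3a, an ATPase of the endoplasmic reticulum, of 11.47 ± 0.14, 11.27 ± 0.11 and 11.42 ± 0.14, both with overlap.

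In Ifitm3 and Ifi35 the Drosha-deleted cells had the lowest of the 3 means. Ifitm3, which stops viruses from fusing with endosomes, stood at 15.64, 15.38 and 15.63 in the controls, 15.38, 15.27 and 15.26 in the Drosha-deleted and 15.73, 15.65 and 15.47 in the Dicer-deleted cells. The Drosha-deleted samples lay below the Dicer-deleted ones, with a difference of −0.31 (SE 0.13, 1.24-fold, adjusted p = 0.857, limma), and at or below the lowest control, from which Drosha-deleted replicate 1 differed only in digits not shown. Ifi35 had means of 11.54 ± 0.06, 11.28 ± 0.35 and 11.49 ± 0.05 (SD, n = 3), and its wide spread in Drosha-deleted cells came from replicate 3, at 10.88. Its Drosha-deleted replicates 1 and 2 and control replicate 3 all stood at 11.48. They differed only in digits not shown.

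Of the guanylate binding proteins and the p200 family, 4 members, 2 had lower means than controls in the Drosha-deleted and all 4 in the Dicer-deleted cells (medians −0.16 and −0.15). Gbp2, a GTPase that attacks the vacuoles of parasites, stood at 10.02, 9.47 and 9.22 in the controls, 9.29, 9.73 and 10.22 in the Drosha-deleted and 9.41, 9.27 and 9.43 in the Dicer-deleted cells. Gbp3, of the same family, had means of 10.50 ± 0.17, 10.61 ± 0.35 and 10.41 ± 0.14 (SD, n = 3). Both had higher means in Drosha-deleted than in control cells, with overlap.

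Ifi204, a DNA sensor of the p200 family, stood at 11.13, 9.92 and 10.33 in the controls, 9.44, 9.40 and 10.23 in the Drosha-deleted and 10.11, 9.79 and 10.42 in the Dicer-deleted cells. Ifi203 had means of 11.80 ± 0.34, 11.38 ± 0.62 and 11.79 ± 0.15 (SD, n = 3), and its Drosha-deleted replicate 3 (12.09) stood near the highest control (12.13). The p200 genes are similar to each other in sequence, so a probe of one may bind RNA of another.

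Cxcl10, the chemokine that draws activated T cells, was the member with the highest difference from controls in Drosha-deleted cells. It stood at 7.44, 8.06 and 8.18 in the controls, 7.21, 8.75 and 8.50 in the Drosha-deleted and 7.75, 7.98 and 6.99 in the Dicer-deleted cells. Drosha-deleted replicates 2 and 3 were the highest arrays and replicate 1 was among the lowest. It was 0.58 higher in Drosha-deleted than in the Dicer-deleted cells (SE 0.42), with an adjusted p of 0.999 (limma), so the groups were not separated.

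**Figure D4:**
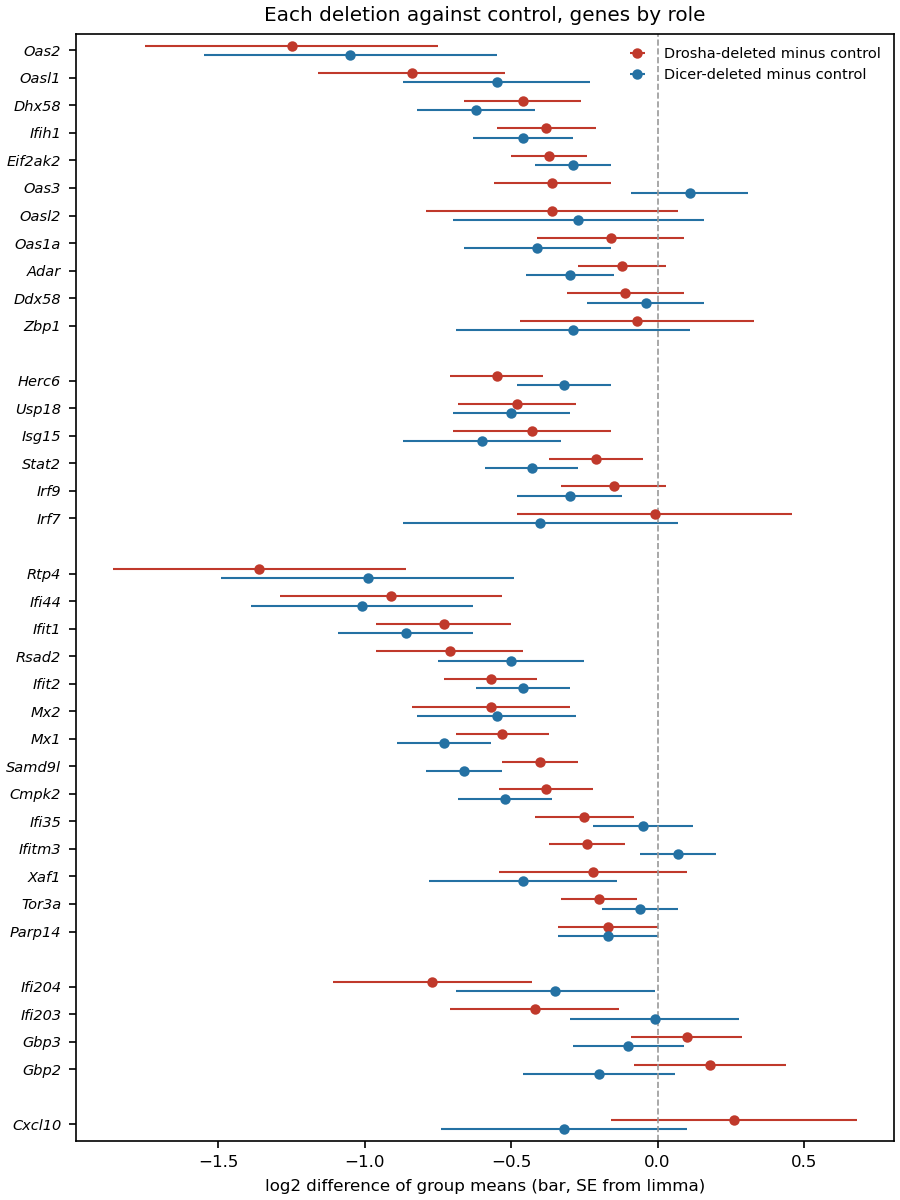
Points are log2 differences of group means between each deletion and controls for the 36 tested genes, ordered from sensors (top) through regulators, effectors and the guanylate binding and p200 families to Cxcl10 (bottom), and bars are standard errors from limma. Most points lie left of 0 in both comparisons, which share the 3 control samples; Oas2 and Rtp4 lie farthest left with the widest bars.

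The deleted groups lay close to each other across the module. The median difference of Drosha-deleted minus Dicer-deleted cells was 0.05 (from −0.47 to 0.58), against 0.004 over all genes, with 19 members above 0 and 17 below. No member was called, where 11 genes (0.0455%) were, and the smallest adjusted p was 0.857 (limma). At an unadjusted p under 0.05 there were 2 members (5.56%), Ifitm3 and Oas3, both lower in Drosha-deleted cells, against 5.39% of all genes in either direction. Samples did not overlap for Samd9l, higher in Drosha-deleted cells (0.26, SE 0.13, adjusted p = 0.993), and for Ifitm3 and Oas3, lower, against 8.35% and 6.55% of all genes.

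Members without overlap between a deletion and the controls were listed by their highest control, a choice that already requires all 3 controls to be high. Of the 12 in Drosha-deleted cells, control replicate 1 was the highest control for 7 and another control for 5, namely Ifit2, Herc6, Rsad2, Eif2ak2 and Cmpk2. Of the 13 in the Dicer-deleted cells these numbers were 7 and 6. The spread within groups was slightly wider for members than for other genes, with a median pooled SD of 0.27 against 0.23.

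Members with and without the ISRE core had similar differences. In Drosha-deleted against control cells the median was −0.30 over the 14 tested members with the core and −0.37 over the 12 tested members whose promoter was matched and lacked it. In Dicer-deleted cells these medians were −0.30 and −0.43.

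Further probes of the same genes mostly had the same sign. Of 14 additional probes of 12 members, 13 had the sign of the probe used in Drosha-deleted against control cells and 12 in Dicer-deleted against control cells, Oas1a and Adar being the ones that differed.

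Other genes of the pathway were followed as lists, and no gene of the 5 lists was called by limma in any of the 3 comparisons. Among 48 tested of 55 further interferon-stimulated genes, the median differences from controls were −0.16 in the Drosha-deleted and −0.23 in the Dicer-deleted cells. All samples lay below the controls for 7 (14.6%) and 16 (33.3%) of them, against 9.98% and 9.55% of all genes, and above for 0 and 4, against 12.3% and 11.5%. At an unadjusted p under 0.05 there were 8 and 7 lower and 1 higher in each, or 18.8% and 16.7% of the list, below the 25.6% and 21% of all genes. Parp10, an ADP-ribosyltransferase, had the smallest p of this list in both, at 13.47, 13.48 and 13.41 in the controls, 12.72, 12.67 and 13.16 in the Drosha-deleted and 12.70, 12.69 and 12.78 in the Dicer-deleted cells. Its differences were −0.60 (SE 0.14, adjusted p = 0.0988) and −0.73 (SE 0.14, adjusted p = 0.14, limma). Iigp1, a GTPase directed at parasites, had positive differences (0.80 and 0.87), and there control replicate 1 (9.33) stood with the deleted samples (9.19 to 9.40) while control replicates 2 and 3 stood at 7.98 and 8.09.

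The interferons themselves were dim. Of 21 ligand genes 16 had a probe and 10 were tested; Ifnb1, the first interferon made after sensing, was well above background on none of the 8 arrays, as were Ifna4, Ifne and Ifng. The ligands' median differences were 0.47 in the Drosha-deleted and 0.29 in the Dicer-deleted cells, opposite in sign to the module. At an unadjusted p under 0.05, 4 (40%) and 2 (20%) ligands were higher and 0 lower, against 25.6% and 21% of all genes. The ligands' median deviation was −0.76 and −0.42 in control replicates 2 and 3 and 0.24 in control replicate 1, so the sign rests on control replicates 2 and 3. Ifna12 had the smallest p, at 7.12, 6.50 and 6.63 in the controls, 7.29, 7.44 and 7.30 in the Drosha-deleted and 7.40, 7.57 and 7.27 in the Dicer-deleted cells (differences 0.59 and 0.66, SE 0.17, adjusted p = 0.119 and 0.16, limma). Interferon alpha genes are close copies of each other, so their probes may not tell them apart.

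Ifnk, an interferon first known from skin, was singled out after its values were seen. It stood at 10.12 in control replicate 1 and between 5.58 and 6.50 on the other 8 arrays. In the scanner files, as log2 signal with the 75th percentile of each array subtracted, it stood at 0.63 in control replicate 1, −1.11 in the aberrant file of control replicate 2 and −5.24 to −3.18 on the other 7 arrays. The array with high Ifnk is the one in which the members were highest, and whether the values are connected was not tested. The array has 1 probe for this gene.

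The receptors and signal transducers of interferon had median differences near 0, at 0.03 in the Drosha-deleted and −0.04 in the Dicer-deleted cells over 18 genes. At an unadjusted p under 0.05, 1 (5.56%) was higher and 0 lower in each, against 25.6% and 21% of all genes. Ifngr2, a chain of the interferon gamma receptor, stood at 11.59, 11.47 and 11.50 in the controls, 12.23, 12.38 and 11.87 in the Drosha-deleted and 11.56, 11.34 and 11.65 in the Dicer-deleted cells. Drosha-deleted samples lay above both other groups, by 0.64 against controls (SE 0.15, adjusted p = 0.0992) and 0.64 against Dicer-deleted cells (SE 0.15, adjusted p = 0.398, limma), and neither passed the threshold.

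Adaptors, kinases and other nucleic acid sensors, 23 tested of 26, had medians of −0.01 and 0. At an unadjusted p under 0.05, 2 were higher and 2 lower in the Drosha-deleted and 2 higher in the Dicer-deleted cells. These were 17.4% and 8.7% of the list, against 25.6% and 21% of all genes. Tarbp2, the double-stranded RNA binding partner of Dicer, stood at 13.00, 12.90 and 12.84 in the controls, 13.55, 13.45 and 13.31 in the Drosha-deleted and 13.04, 13.07 and 13.09 in the Dicer-deleted cells. It was 0.52 higher in Drosha-deleted than in control cells (SE 0.11, adjusted p = 0.0883, limma), with all 3 samples above both other groups. The 17 genes that clear or restrain nucleic acids had medians of −0.05 and −0.03. At an unadjusted p under 0.05, 1 was higher and 2 lower in the Drosha-deleted and 1 lower in the Dicer-deleted cells. These were 17.6% and 5.88% of the 17, against 25.6% and 21% of all genes. Among the 17, Ttc37, a part of the complex that feeds RNA to the exosome, had differences of −0.60 and −0.56 with no overlap (SE 0.13, adjusted p = 0.088 and 0.148, limma).

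**Figure D5:**
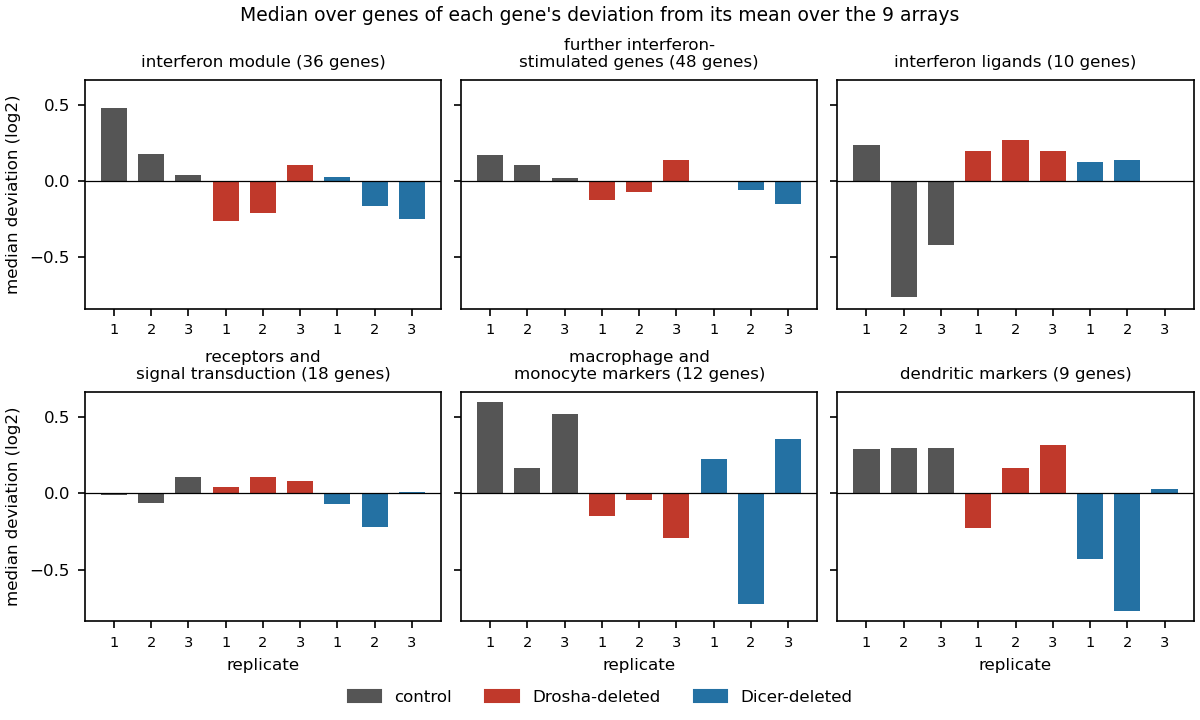
Bars are the median over the genes of a list of each gene's deviation from its mean over the 9 arrays (log2 units), by replicate and group. The interferon module is highest in control replicate 1, the ligands are lowest in control replicates 2 and 3 (−0.76 and −0.42), the receptors stay near 0, and the macrophage and dendritic markers are lowest in Dicer-deleted replicate 2 (−0.73 and −0.77).

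Markers of progenitors and of other cell types were read beside the module. The 8 progenitor markers, which include Kit and Ly6a, were all tested and had median differences of 0.06 and 0.04. Of 13 macrophage and monocyte markers 12 were tested, with medians of −0.45 in the Drosha-deleted and −0.35 in the Dicer-deleted cells. Cd14, a coreceptor for lipopolysaccharide, fell by 1.26 in Drosha-deleted cells (SE 0.16, adjusted p = 0.0336, limma), from 10.63, 10.83 and 10.77 in controls to 9.71, 9.57 and 9.18. Of the 12, 11 had lower means in the Drosha-deleted cells and 10 in the Dicer-deleted cells. All samples lay below the controls for 5 (41.7%) and 1 (8.33%), against 9.98% and 9.55% of all genes. At an unadjusted p under 0.05 there were 5 and 1 lower and 1 higher in each. These were 50% and 16.7% of the list, against 25.6% and 21% of all genes. The summed level of the 12 markers (log2) is set by the brightest probes, such as Itgam (difference 0.72 in the Drosha-deleted cells). It ranged from 15.08 to 15.71 in the controls, 15.34 to 15.83 in the Drosha-deleted and 15.46 to 15.75 in the Dicer-deleted cells.

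Of 10 dendritic markers 9 were tested, with medians of −0.27 and −0.74 and summed levels of 16.12 to 16.56, 15.28 to 16.13 and 15.00 to 15.89. All samples lay below the controls for 1 (11.1%) and 5 (55.6%) dendritic markers, against 9.98% and 9.55% of all genes. They lay above the controls for 1 (11.1%) and 0, against 12.3% and 11.5% of all genes. Of 8 plasmacytoid dendritic markers, cells known as strong producers of interferon, 7 were tested, with medians of 0.14 and −0.09 and summed levels of 16.62 to 16.74, 16.52 to 16.99 and 16.49 to 16.72. The 7 megakaryocyte markers had medians of −0.17 and −0.67 and summed levels of 18.68 to 18.86, 18.39 to 18.68 and 18.19 to 18.42. All samples lay below the controls for 2 (28.6%) and 5 (71.4%) of the 7, against 9.98% and 9.55% of all genes. Control replicate 1 was the highest array for 4 of 7, against 5.8% of all genes. The 9 neutrophil markers had medians of 0.37 and −0.01, with 9 and 4 above 0, the 8 mast and basophil markers 0.01 and −0.16, the 6 tested of 7 erythroid markers 0.25 and −0.03, and the 5 tested of 10 lymphoid markers −0.17 and −0.06. The lymphoid genes Pax5, Cd3g, Cd8a and Rag1 were well above background on none of the 8 arrays. The part of these cells in the module's levels was not tested, and in bulk RNA fewer cells of a type and less RNA per cell cannot be told apart.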

How the data were processed

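RNA of 9 samples was hybridised to 1-colour Agilent arrays (design 028005). The deposited values of the authors are on a log2 scale with column medians between 6.36 and 6.38; how they were normalised is not given in the sources used here. The submitters' processing notes name limma without a version. The deposited scanner files hold Cy3 intensity values made with Feature Extraction 10.7.3.1, per the file headers, which place the probes on mm9. Spots of a probe were averaged, control spots left out, and a gene was represented by the probe with the highest mean over the 9 columns. A gene was tested when that probe was well above background on at least 3 of the 8 arrays other than control replicate 2.

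Group means were fitted to the authors' values over all 9 samples with limma 3.58.1 in R 4.3.3, with two-sided moderated tests, Benjamini-Hochberg adjustment over the 24199 genes tested and a threshold of 0.05. The members, lists and alternatives were chosen with earlier results of these data known, so no set test was made and lists are described by counts and medians beside those of all genes. Differences with SE and p are given for members past the threshold and for the 6 with the smallest p in a comparison; in other lists, for called genes and up to 3 with the smallest p. Exceptions are named. Scripts were checked on simulated data. Alternatives used the scanner signal as log2 less the 75th percentile of each array or after normexp (offset 50) and quantile normalisation, other filters and probe rules, replicate and slide blocks, array weights and samples left out.

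The labels do not say that replicate numbers pair the samples. Deviations of same-numbered samples from their group means correlated between −0.27 and 0.23, and those of different numbers between −0.28 and 0.27. With 3 samples per group this cannot exclude a pairing.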

Additional observations from a re-analysis of the deposited data

How the results depend on the processing

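The median difference of the members from the mean of the controls stayed below 0 in all 20 alternatives. It ranged from −0.61 to −0.16 in Drosha-deleted and from −0.68 to −0.09 in Dicer-deleted cells. The −0.16 came with the scanner values and after normexp and quantile normalisation, where the medians over all genes were 0.27 and 0.20. The −0.09 came after normexp and quantile normalisation, where the median over all genes was 0.20. Between the deletions the median difference of the members ranged from −0.11 to 0.13. The counts moved, and unless stated the cause was not tested. Called genes are given for Drosha-deleted against control, Dicer-deleted against control and Drosha- against Dicer-deleted cells, in that order. They were 30, 2 and 11 as reported and became 0, 0 and 0 with the scanner values, 6, 1 and 5 with these but without control replicate 2, and 1, 0 and 1 after normexp and quantile normalisation. With the slide as a block, which removes control replicate 3, they were 12, 1 and 7, and with array weights 11591, 9830 and 136. With only the 2 groups compared they were 5 and 0 for the comparisons with controls, and with controls 2 and 3 left out together 21 for Dicer-deleted cells. Leaving out 1 sample at a time gave 4 to 7587, 0 to 6869 and 4 to 16, the upper ends being without control replicate 1; members called were then 0 to 3, 0 to 4 and 0, and members without overlap 12 to 24 (24 without Drosha-deleted replicate 3), 13 to 19 and 3 to 11 (11 without Dicer-deleted replicate 3). Members called were 13 and 9 with array weights. Members without overlap from controls were 5 and 7 with the scanner values, and 16 and 18 with these but without control replicate 2. After normexp and quantile normalisation members without overlap were 2 and 4. Members without overlap were 31 and 33 with controls 2 and 3 left out, where 1 control leaves fewer samples to overlap. Leaving out any 1 sample also leaves fewer samples to overlap. The share of all genes without overlap is given only for the authors' values over all 9 samples. The counts without overlap in the alternatives therefore cannot show whether members differed from other genes there.

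Among the members given with an SE, whose differences alone were followed through the alternatives, the sign turned in 4 cases. After normexp and quantile normalisation it turned in Ifit2 (0.22 and 0.27) and in Cmpk2 in Dicer-deleted cells (0.11). The median over all genes was 0.20 there in both comparisons with controls. With the mean of its probes it turned in Herc6 between the deletions (0.01). With the replicate number as a block, 4, 0 and 5 genes were called and no member; the numbers are not said to pair samples.

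The aberrant file of control replicate 2 limits every scanner value against controls: in it, all genes stood at a median of 0.92 below both deleted groups. Dim members such as Mx1, Mx2 and Ifit3 are limited by signal over background.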
